A study of Capra hircus with 6 samples.

Results

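The genes examined were the hormone subunits CGA, TSHB, LHB, FSHB, GH1 and PRL, the melatonin receptor gene MTNR1A, and the transcription factor genes EYA3, POU1F1 and PITX1, all of which are used by pituitary cells. They were listed by name and chosen by the FPKM values of CGA in these same libraries, whose rise between the stages was already known, to ask whether that rise went with genes of the pars tuberalis or with genes of the pars distalis. All 10 were found among the 20225 genes of the mRNA table. Hypothalamus RNA came from 3 pubertal (aged 4.5 to 5 months) and 3 prepubertal (aged 2.5 to 3 months) female Anhuai goats kept on the same farm, with 1 library per goat. Puberty was judged by male goats detecting estrus and by the vulva, and the pubertal goats were killed late in the follicular phase, so stage, age and the phase of the cycle cannot be told apart. The labels and the study's methods name the tissue as hypothalamus and give no borders for the dissection.

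The pars tuberalis is a thin sheet of pituitary cells that lies under the median eminence and around the pituitary stalk. Its cells carry the melatonin receptor MTNR1A and make thyrotropin, a dimer of the common alpha subunit (CGA) and the beta subunit TSHB, and in seasonal mammals EYA3 takes part in switching TSHB on in long days. The pars distalis, the main part of the anterior pituitary, makes growth hormone (GH1), prolactin (PRL) and the gonadotropins, whose beta subunits LHB and FSHB pair with the same CGA subunit. POU1F1 is the factor of the cells that make growth hormone, prolactin and thyrotropin there, and PITX1 is a factor of nearly all pituitary cells.

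Expression was deposited by the authors as FPKM, fragments scaled by transcript length and by a total for the library (its scaling total). It was summed here over the transcripts of each gene. The low values of genes with a single transcript were whole multiples of the value of 1 fragment. Within a tolerance of 0.05 fragments, between 99.85% and 100% of the values under 6 fragments in a library came out whole. The implied scaling totals were lowest in pubertal replicate 3 (17.3, in units of 1000000 fragments) and highest in prepubertal replicate 3 (23.6), so the fragments behind each value could be given, and all 60 values of the 10 genes lay within 0.055 of a whole number. Intervals on fragments are exact Poisson 95% intervals and cover counting error only, since the reads carry no molecular identifiers. In bulk tissue, more cells of a type and more RNA per cell cannot be told apart.

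The label of the tissue was checked on markers. PMCH, a peptide of lateral hypothalamic neurons, was between 673 and 2173 FPKM in the 6 libraries, and SIM1 and OTP, factors of paraventricular neurons, were detected in all 6. AVP was listed at 0 in every library, on a model of only 309 nt. NKX2-1, HCRT, OXT and TRH were not matched and were not analysed here.

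CGA was the gene with the highest level of the group in each pubertal library apart from PRL in pubertal replicate 3. Pubertal replicates 1, 2 and 3 had 50.1, 62.5 and 39.4 FPKM of CGA, from 531, 712 and 335 fragments. Prepubertal replicates 1, 2 and 3 had 2.24, 18.0 and 3.32 FPKM, from 21, 199 and 38 fragments. Every pubertal library lay above every prepubertal one, and prepubertal replicate 2 stood between the other prepubertal libraries and the pubertal ones. The means were 50.7 ± 11.5 FPKM (SD, n = 3) and 7.85 ± 8.80 FPKM (SD, n = 3), a ratio of 6.45, and the difference on log2(FPKM + 1), a scale that understates the change of low genes, was 2.98 with a standard error of 0.58. Among all genes of a library ordered by level, CGA stood at position 2253, 1624 and 2596 in the pubertal and at position 12548, 5656 and 11710 in the prepubertal replicates. As this difference chose the genes, it is given as a description with no test.

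**Figure D1:**
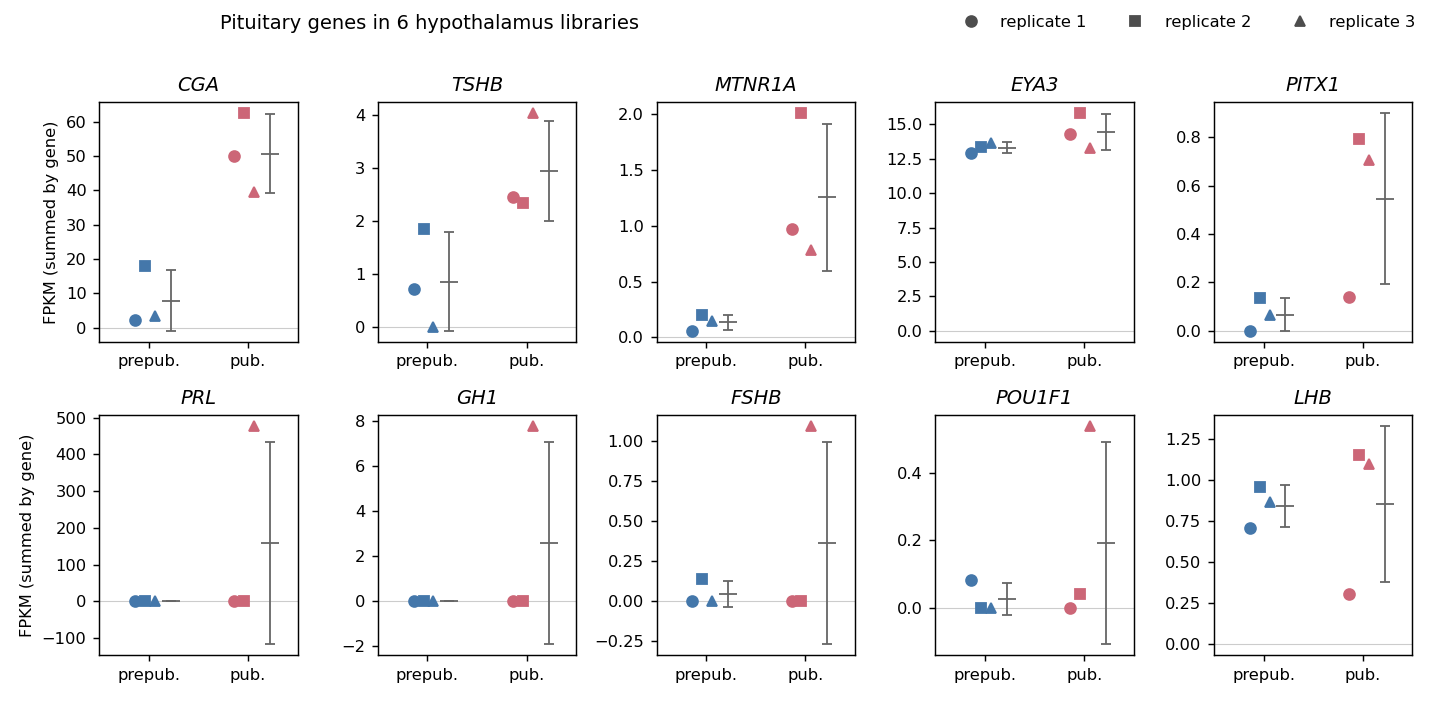
FPKM of the 10 pituitary genes (vertical axes, each from its own scale) in prepubertal (blue) and pubertal (red) goats, with 1 point per library and the mean ± SD of 3 libraries beside it. CGA, TSHB, MTNR1A and PITX1 were higher in every pubertal library, while PRL, GH1, FSHB and POU1F1 were high in pubertal replicate 3 (triangle).

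MTNR1A, the receptor through which the pars tuberalis reads melatonin, gave 0.974, 2.01 and 0.783 FPKM for pubertal replicates 1, 2 and 3. Prepubertal replicates 1, 2 and 3 gave 0.0588, 0.199 and 0.145 FPKM, which rest on 1, 4 and 3 fragments against 19, 41 and 12 in the pubertal ones. The stages did not overlap, and the libraries stood in the same order as for CGA, from pubertal replicate 2 at the top to prepubertal replicate 1 at the bottom. Summed over the libraries, 72 pubertal against 8 prepubertal fragments gave a ratio of 9.45 after scaling by the library totals, with an exact 95% interval from 4.55 to 22.7 that covers counting error and not the spread between goats. On log2(FPKM + 1) the difference was 0.96 with a standard error of 0.19, a value made small by the low level.

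TSHB, the thyrotropin beta subunit, had 2.46, 2.33 and 4.04 FPKM for pubertal replicates 1, 2 and 3, against 0.724 and 1.84 FPKM for prepubertal replicates 1 and 2. In prepubertal replicate 3 it was listed at 0, where 3 fragments would give 0.445 FPKM. The pubertal libraries, with 15, 16 and 18 fragments, lay above the prepubertal ones, with 4, 12 and 0. Scaled by the library totals to 1000000 fragments, prepubertal replicate 2 had 0.524 with an interval from 0.271 to 0.915. That interval covered the 0.664 and 0.702 of pubertal replicates 1 and 2. It also overlapped the interval of pubertal replicate 3, which was at 1.04 (0.616 to 1.64). The ratio of summed fragments, scaled in the same way, was 3.21 (interval 1.80 to 6.05), and the difference on log2(FPKM + 1) was 1.19 with a standard error of 0.35. Nearly all TSHB came from the transcript of 532 nt, XM_005677829.2, and the transcript of 417 nt was above 1 FPKM only in pubertal replicate 3.

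EYA3 was measured from 1195 to 1890 fragments per library, so depth did not limit it. Pubertal replicates 1, 2 and 3 had 14.3, 15.8 and 13.3 FPKM, prepubertal replicates 1, 2 and 3 had 12.9, 13.4 and 13.7 FPKM, and the stages overlapped. The means, 14.5 ± 1.29 and 13.3 ± 0.371 FPKM (SD, n = 3 each), gave a log2 difference of 0.11 with a standard error of 0.10. Its transcript of 5402 nt held 51.3% of the EYA3 level in pubertal replicate 2 and between 64.1% and 70.0% in the other libraries. The higher sum in pubertal replicate 2 came with the transcript of 5540 nt, which was at 7.70 FPKM there and between 3.98 and 4.96 FPKM elsewhere. In prepubertal replicate 1, EYA3 had 1300 fragments, where CGA had 21 and MTNR1A 1. Which cells the EYA3 level came from was not tested, so it cannot be read as the level in pars tuberalis cells alone.

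PITX1, present in pituitary cells of both parts, was low. Pubertal replicates 1, 2 and 3 had 0.140, 0.793 and 0.706 FPKM of it, against 0, 0.135 and 0.0653 FPKM for the prepubertal ones. The stages did not overlap by value, but pubertal replicate 1 and prepubertal replicate 2 rested on 2 fragments each, so those libraries differed only by their scaling.

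**Figure D2:**
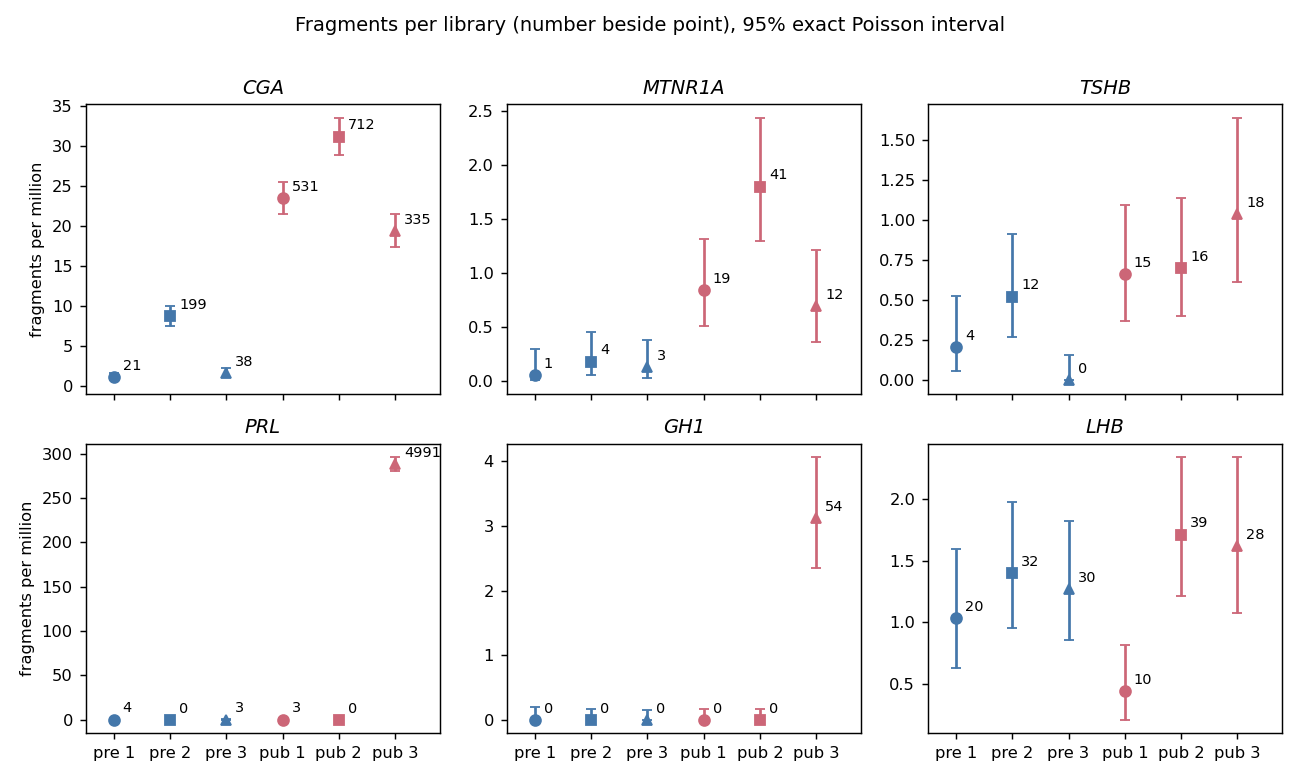
Fragments scaled by the library total (vertical axes) of 6 genes in the 3 prepubertal (pre, blue) and 3 pubertal (pub, red) libraries, with 95% exact Poisson intervals and the number of fragments beside each point. The CGA intervals of the 3 pubertal libraries lay clear of the prepubertal ones, while PRL and GH1 were at 4991 and 54 fragments in pubertal replicate 3 and at no more than 4 elsewhere.

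PRL, GH1, FSHB and POU1F1, but not LHB, had another distribution. PRL (gene 100861193) was at 477 FPKM, from 4991 fragments, in pubertal replicate 3. Pubertal replicates 1 and 2 had 0.228 and 0 FPKM, and prepubertal replicates 1, 2 and 3 had 0.345, 0 and 0.212 FPKM, with at most 4 fragments in any of these libraries. GH1 had 54 fragments (7.79 FPKM, interval 40.6 to 70.5 fragments) in pubertal replicate 3 and was listed at 0 in the other 5 libraries, where 3 fragments would give between 0.321 and 0.393 FPKM. Both hormones were thus read almost entirely in 1 goat, which also had the fewest fragments in its scaling total.

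FSHB had 11 fragments in pubertal replicate 3 (1.09 FPKM), 2 in prepubertal replicate 2 and 0 in the other 4 libraries. POU1F1 had 9 fragments in pubertal replicate 3 (0.539 FPKM), 1 each in pubertal replicate 2 and prepubertal replicate 1, and 0 in the other 3. Of all fragments of a gene, pubertal replicate 3 held 100% for GH1, 99.8% for PRL, 84.6% for FSHB and 81.8% for POU1F1. It held 17.6% of those of LHB, which is also a pars distalis gene, and 32.0% of PITX1. Of the genes used by the pars tuberalis, it held 18.2% for CGA, 15.0% for MTNR1A, 27.7% for TSHB and 12.8% for EYA3, so TSHB leaned most to this library among them. These shares are not scaled for depth. The scaling total of pubertal replicate 3 was 17.3, against 19.4 to 23.6 in the other libraries (in units of 1000000 fragments).

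LHB, the luteinizing hormone beta subunit, gave 0.306, 1.16 and 1.10 FPKM for pubertal replicates 1, 2 and 3, against 0.707, 0.957 and 0.869 FPKM for the prepubertal ones. Pubertal replicate 1 was the lowest of all 6 libraries, and the stages overlapped. With 77 pubertal and 82 prepubertal fragments the scaled ratio was 0.985 (interval 0.713 to 1.36), and the log2 difference was -0.03 with a standard error of 0.20. The LHB model of these tables is 1709 nt long, and FPKM does not show where on it the fragments lay.

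**Figure D3:**
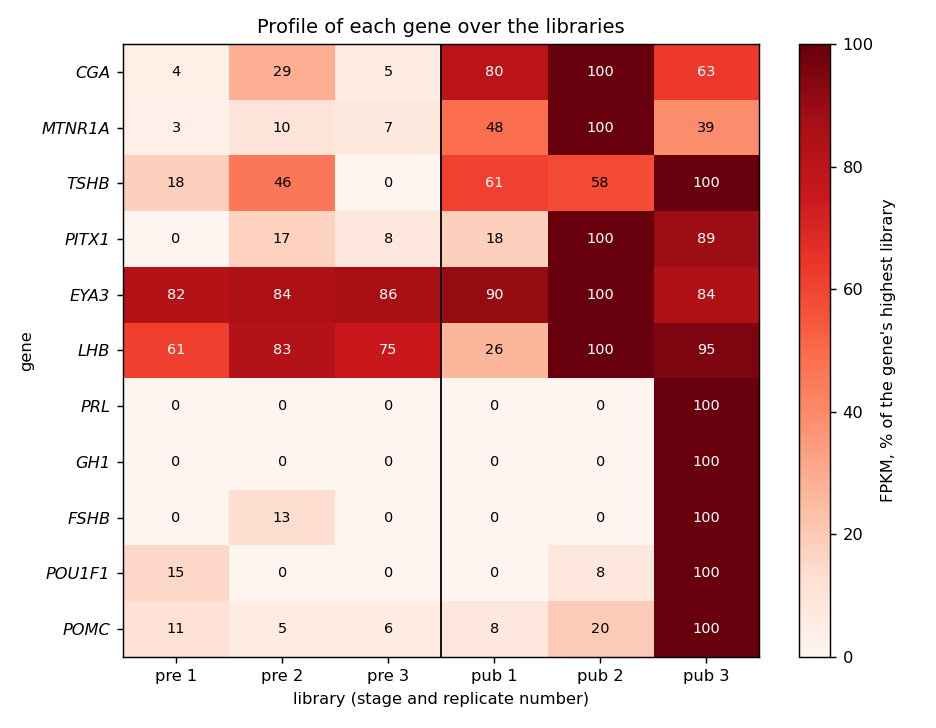
FPKM of the 10 genes and POMC (rows) in each library (columns) as a rounded percentage of the highest library of that gene, shown by colour and number. CGA is dark in all 3 pubertal columns. TSHB is darkest in that of pubertal replicate 3 and of middle shade in the other pubertal columns and in prepubertal replicate 2. MTNR1A and PITX1 vary more among the pubertal columns. PRL, GH1, FSHB, POU1F1 and POMC are dark in the column of pubertal replicate 3 alone.

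The log2 differences were also computed without pubertal replicate 3. Without it, the log2 difference of CGA was 3.15 (standard error 0.67), that of MTNR1A 1.11 (0.19) and that of TSHB 0.999 (0.38). Without it, those of PRL, FSHB and POU1F1 were -0.09 (0.16), -0.06 (0.11) and -0.01 (0.10), and GH1 was listed at 0 in every library left. Those of LHB, EYA3 and PITX1 were -0.13 (0.21), 0.16 (0.11) and 0.42 (0.19), so LHB did not move as the other pars distalis hormones did and EYA3 stayed near 0. Within the pubertal goats, CGA and MTNR1A were lowest in the library with the highest PRL.

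The beta subunits were compared with CGA within each library, per length. CGA exceeded TSHB by 20.4, 26.8 and 9.77 times in pubertal replicates 1, 2 and 3 and by 3.09 and 9.75 times in prepubertal replicates 1 and 2. Against the sum of TSHB, LHB and FSHB it was at 18.1, 17.9 and 6.33 times in the pubertal and at 1.57, 6.11 and 3.82 times in the prepubertal replicates. The alpha subunit exceeded its known partners in all 6 libraries, and pubertal replicate 3 and prepubertal replicate 2 lay side by side in this ratio. The ratio to TSHB in prepubertal libraries rests on 4 and 12 TSHB fragments.

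The stage comparison over all genes gave the background. With limma on log2(FPKM + 1), the number of genes past an adjusted p of 0.05 (Benjamini-Hochberg) was 0 of 16397 with a mean of at least 0.1 FPKM (0%), and limma's voom on the fragments also called 0. At an unadjusted p under 0.05, 846 genes differed (5.16%), of which 575 were higher (3.51%) and 271 lower (1.65%), and quantile normalization gave 462 and 377. Without pubertal replicate 1 there were 981 higher and 1239 lower, so the excess of higher genes turned around. The pubertal libraries lay wholly above the prepubertal ones in 5.91% of the genes and wholly below in 3.84%. Of the 10 pituitary genes, 4 lay wholly above (CGA, TSHB, MTNR1A and PITX1) and 0 below, a count that cannot be read against the background because the list was made from this contrast. All 10 passed the minimum of 0.1 FPKM, but GH1, FSHB and POU1F1 did so only through pubertal replicate 3. PITX1, with a prepubertal mean of 0.0668 FPKM, passed only through the pubertal libraries.

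Other pituitary genes were followed from a list of 15, which held factors of pituitary cells and the receptors of releasing hormones. Of these, 14 were in the table and 11 were tested, 1 (POMC) had an unadjusted p-value under 0.05, and none had an adjusted one. Their median log2 difference was 0.09, against -0.00065 over all genes tested. POMC, the precursor of corticotropin and melanotropin that is made in the pituitary and in arcuate neurons, had 34.4, 85.1 and 429 FPKM for pubertal replicates 1, 2 and 3, against 47.4, 22.9 and 24.3 FPKM for the prepubertal ones. Its log2 difference was 1.83 with a standard error of 0.78 (limma, unadjusted p = 0.0473, adjusted p = 0.959, with a range of 0.291 to 1 over the alternatives), and without pubertal replicate 3 it was 0.84 with a standard error of 0.42. The stages overlapped for POMC, and 61.2% of its fragments were in pubertal replicate 3.

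TRHR, listed with GNRHR and GHRHR as a receptor of pars distalis cells, was between 3.45 and 5.62 FPKM, from 70 to 150 fragments per library. NR5A1 was between 1.80 and 4.73 FPKM, and the stages overlapped for both. Where GH1 was listed at 0, TRHR still had 92 to 150 fragments per library and NR5A1 42 to 107. The cells that TRHR and NR5A1 came from were not tested, so their levels cannot be read as those of pars distalis cells. GNRHR and GHRHR, unlike TRHR, were read from at most 5 fragments in any library. GNRHR, the receptor of gonadotropes, was at most 0.225 FPKM and GHRHR, the receptor of growth hormone cells, at most 0.171 FPKM. In pubertal replicate 3, where GH1 and PRL were read, GNRHR was at 0.188 FPKM and GHRHR at 0.0522 FPKM.

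Genes that melatonin or photoperiod regulates in the pars tuberalis, but that brain cells also use, were taken from a list of 10. Of the 9 tested, 0 passed an unadjusted p of 0.05 (limma), and their median log2 difference was 0.06. The clock gene CRY1 averaged 8.17 ± 1.22 FPKM over the pubertal and 9.01 ± 1.26 FPKM over the prepubertal goats (SD, n = 3 each). TEF, which encodes a partner of EYA3 at the TSHB promoter, was at 33.3 ± 4.66 and 34.6 ± 1.70 FPKM (SD, n = 3 each).

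Tanycytes, the cells of the third ventricle floor that face the pars tuberalis, carry the thyrotropin receptor and set local thyroid hormone with the deiodinases DIO2 and DIO3. Of the 9 genes tested of this list, 1 was lower at an unadjusted p-value under 0.05 and none passed the adjusted threshold. That gene was DIO3, which inactivates thyroid hormone. Pubertal replicates 1, 2 and 3 had 0.504, 0.821 and 0.643 FPKM of it, prepubertal replicates 1, 2 and 3 had 0.984, 1.37 and 1.14 FPKM, so the stages did not overlap. Its log2 difference was -0.39 with a standard error of 0.13 (limma, unadjusted p = 0.0156, adjusted p = 0.825, with a range of 0.368 to 1 over the alternatives). DIO2, which activates the hormone, reached 13.4 FPKM in pubertal replicate 1 and had 5.09 to 7.85 FPKM elsewhere. CRYM, a thyroid hormone binding protein abundant in tanycytes, was at 90.2 ± 13.1 and 105 ± 31.7 FPKM (SD, n = 3 each).

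The receptors of the hormones were read in both stages. Of 5 tested, 0 passed an unadjusted p of 0.05 (limma). TSHR, the thyrotropin receptor, averaged 3.25 ± 1.35 FPKM over the pubertal and 3.53 ± 1.64 FPKM over the prepubertal goats (SD, n = 3 each). PRLR and GHR were between 4.98 and 9.33 and between 4.71 and 7.84 FPKM. MTNR1B, the second melatonin receptor gene, was at most 0.180 FPKM in any library, with overlapping stages. It rested on 1 or 2 fragments per library, too few to compare the stages or to set it against MTNR1A. A difference between both receptor genes was not tested.

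**Figure D4:**
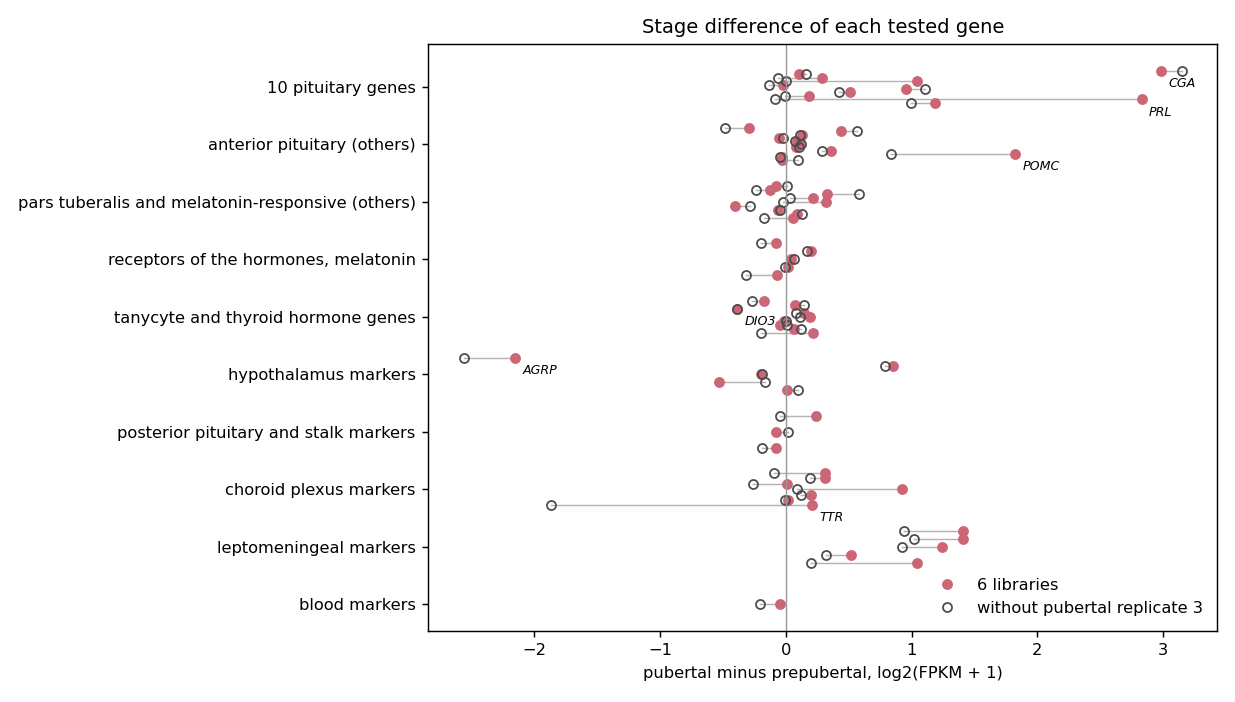
Pubertal minus prepubertal difference on log2(FPKM + 1) (horizontal axis) of each tested gene, by list (rows), with all 6 libraries (filled) and without pubertal replicate 3 (open), joined by a line. CGA stayed near 3 on this scale without that library, while PRL moved from 2.83 to -0.09 and the leptomeningeal markers stayed above 0.

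Markers of tissue beside the hypothalamus were measured in the same libraries. Of 6 leptomeningeal markers, 5 were in the table and tested, and COL1A1, COL1A2 and DCN, fibroblast matrix genes, were higher at an unadjusted p-value under 0.05, none at an adjusted one. Their summed level was between 101 and 258 FPKM in the pubertal and between 40.1 and 73.5 FPKM in the prepubertal libraries, and none of the 5 was at 0. Without pubertal replicate 3 the pubertal sums were 101 and 121 FPKM, still above the prepubertal ones. COL1A1, COL1A2 and DCN lay wholly higher in the pubertal libraries, as CGA did, while LUM and SLC6A13 overlapped between the stages. LUM was at 10.5 FPKM in pubertal replicate 2 against 11.2 FPKM in prepubertal replicate 2. SLC6A13 was at 4.47 FPKM in pubertal replicate 1 against 4.60 FPKM in prepubertal replicate 2. The part of these markers in the CGA difference was not tested. DCN had 48.3, 40.3 and 86.9 FPKM for pubertal replicates 1, 2 and 3, against 16.1, 28.2 and 26.1 FPKM for the prepubertal ones. Unlike CGA, it was highest in pubertal replicate 3.

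Of 7 choroid plexus markers, all were tested and 0 passed an unadjusted p of 0.05 (limma). Their summed level was 338 FPKM in pubertal replicate 3, 13.0 and 18.7 FPKM for the other pubertal libraries, and 12.5 to 65.2 FPKM over the prepubertal ones. CLIC6 was listed at 0 in prepubertal replicate 3 and the other markers were above 0 in all libraries. TTR, at 309 FPKM, made up most of the sum in pubertal replicate 3, and KCNJ13 was at 14.4 FPKM there. CLIC6, FOLR1, AQP1 and KL were also highest in that library, KL by little (2.70 against 2.68 FPKM for prepubertal replicate 2). PRLR was not, at 7.15 against 9.33 FPKM for prepubertal replicate 2. Pubertal replicate 3 thus held high values of TTR, KCNJ13 and leptomeningeal markers beside those of PRL, GH1 and POMC. The part of choroid plexus and leptomeningeal tissue in its values was not tested. The blood markers ALAS2 and AHSP were at most 0.0345 and 3.54 FPKM, and the 3 posterior pituitary and stalk markers in the table overlapped between the stages.

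The 5 genes with a mean of at least 1 FPKM whose values over the 6 libraries were most like those of CGA were TPX2 (Pearson r = 0.987), MLKL (0.976), gene 102181415 (0.976), CSNK1G1 (0.976) and gene 106503855 (0.971), out of 14080 genes on log2(FPKM + 1). Their Spearman rho with CGA ran from 0.829 to 1. TPX2, a spindle assembly factor, had 3.89, 4.12 and 3.73 FPKM for pubertal replicates 1, 2 and 3, against 2.92, 3.39 and 2.98 FPKM for the prepubertal ones. By the same measure r was 0.871 for MTNR1A, 0.864 for TSHB, 0.747 for PITX1 and 0.637 for EYA3, and it was 0.316, 0.306, 0.277, 0.240 and 0.051 for FSHB, GH1, PRL, POU1F1 and LHB. Among the 14080 genes TSHB stood at position 137 and EYA3 at position 1064 by r, so many other genes were more like CGA, and MTNR1A and PITX1 were not ranked because their means were under 1 FPKM. These values are descriptions without p-values, since the stages separate in CGA and the same 6 libraries were ranked for every gene.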

How the data were processed

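Paired-end reads were aligned by the authors with TopHat (the build is not given in the sources used here). Transcripts came from Scripture and Cufflinks 2.1.1, and the authors deposited FPKM per transcript and library. The deposited Cuffdiff 2.1.1 table, which also holds the authors' group means, fold changes and p-values, was read only for gene identifiers and transcript lengths. FPKM was summed by gene. RefSeq symbols (assembly ARS1.2, used for names only) matched 19083 of 20225 genes (94.4%). PRL was not matched there, and its identifier came from the KEGG annotation of the study, where 93.0% of 2967 other pairings gave a name that matched the RefSeq symbol. The lncRNA tables were not used, and 0 per-sample columns lacked a sample.

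Fragments were recovered as FPKM × (length - a) / k, with a and k fitted in each library on single-transcript genes between 600 and 4000 nt, and used for transcripts of at least 400 nt. At gene level 99.9% of values under 20 fragments in single-transcript genes were whole within 0.1.

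Stages were compared with limma 3.58.1 under R 4.3.3 (moderated, trended variance, two-sided), taking log2(FPKM + 1) of genes with a mean of at least 0.1 FPKM. Adjustment was by Benjamini-Hochberg over those genes, at 0.05. The script was tested on simulated data. Alternatives were the pseudocount, the minimum, scaling, the trend, single transcripts, the replicate block and leaving out each library, and voom was added after values were seen. Tables and plots used pandas 2.3.3 and numpy 2.4.6 in Python 3.11.15, with scipy 1.17.1 for intervals and matplotlib 3.10.9 for plots. The genes and lists were chosen with earlier results of these data known. Named were the 10 genes, list genes with an unadjusted p-value under 0.05 or a high level, defining markers at 0, and the 5 genes most like CGA. Low genes such as GNRHR, GHRHR and MTNR1B were named after their values were seen. Some list genes are not reported here.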

Additional observations from a re-analysis of the deposited data

How the results depend on the processing

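The log2 difference of CGA kept its direction in 16 of 16 alternatives and moved by less than the spread between goats, from 2.49 without prepubertal replicate 1 to 3.76 without prepubertal replicate 2. TSHB, MTNR1A and PITX1 stayed above 0 in all of theirs. The stages did not overlap for CGA or for these genes. Leaving out a library or changing the pseudocount, the trend or the block therefore could not turn the direction. For those alternatives only the size of the difference is informative, and the rise of CGA had chosen the genes. A pseudocount of 0.1 moved MTNR1A from 0.96 to 2.48, TSHB from 1.19 to 2.44 and PITX1 from 0.51 to 1.82, and voom on fragments gave 3.002, 2.55 and 2.39. The count of genes with an adjusted p-value under 0.05 was 0 without a block and 0 to 4 with 1 library left out, with 4 without pubertal replicate 2. Unadjusted counts ran from 336 to 981 higher and from 164 to 1239 lower with 1 library left out, the highest without pubertal replicate 1, where lower genes outnumbered higher ones, and the lowest without prepubertal replicate 1. The lower count was 162 after rescaling without NKD2 and 476 over single transcripts, where more features were tested, and the cause of the first was not tested. With the replicate number as a block, 1 gene had an adjusted p-value under 0.05, 597 were higher and 250 lower at an unadjusted one, and CGA stayed at 2.98. The standard error of CGA was 0.37 with the block and 0.58 without. Over genes with a mean of at least 1 FPKM, goats of the same number did not deviate together (r = -0.029, -0.107 and 0.088). A pairing that touches only some genes was not tested. The count of list genes with an unadjusted p-value under 0.05 (limma) was 7, and 6 to 10 over the alternatives, with 1 to 11 genes tested per list. Over all genes tested the share was 5.16%. The lists were chosen with earlier results known, so their count cannot be read against that share. Depth limits the genes under about 20 fragments a library, which here include TSHB, FSHB, POU1F1, PITX1 and, in 5 of 6 libraries, MTNR1A.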

Other observations

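There were 17 genes with a mean of at least 1 FPKM that were over 10 times higher in pubertal replicate 3 than in any other library, against 1 each for pubertal replicate 2 and prepubertal replicate 2 and 0 for the other 3 libraries. Besides PRL and GH1 they included, all named after their values were seen, IGFBP2 at 73.6 FPKM (at most 5.18 elsewhere), a binding protein of insulin-like growth factors, and IGF2 at 15.3 FPKM (at most 0.668), one of those growth factors. CRABP2, a retinoic acid binding protein, was at 19.9 FPKM (at most 0.829). SLC22A8, an organic anion transporter, was at 5.68 FPKM (at most 0.188), and OSR1, a transcription factor of mesenchymal cells, was at 6.51 FPKM (at most 0.420).

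GNRH1 had 13.5, 14.1 and 16.0 FPKM for pubertal replicates 1, 2 and 3, against 6.92, 11.6 and 5.34 FPKM for the prepubertal ones. Prepubertal replicate 2, which had the highest CGA of its stage, also had the highest GNRH1. AGRP, a peptide of arcuate neurons, was highest in the same library. It had 22.7, 5.69 and 28.3 FPKM in pubertal replicates 1, 2 and 3, against 97.5, 176 and 22.3 FPKM in the prepubertal ones. The stages overlapped for AGRP but not for GNRH1. The log2 difference was 0.85 for GNRH1 (limma, unadjusted p = 0.00577, adjusted p = 0.779). For AGRP it was -2.15 (limma, unadjusted p = 0.0238, adjusted p = 0.883).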
